A study of Mus musculus with 36 samples.

Results

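The comparison is that of SPOC mutant clones with wild-type (WT) cells after 24 h of Xist induction, read as the gain of H2AK119ub1 on the genome 2 copy of chromosome X over the genome 1 copy. It uses 10 of the 36 libraries of the series. These are the 4 H2AK119ub1 libraries of the SPOC clones E7 and H1 and the 6 of WT replicates 1 to 3, each as an uninduced and an induced library of the same clone or replicate, called a pair here. Signal was read in 250 kb windows from the start of the chromosome to Xist, and 353 of 414 windows had enough signal on both alleles to be used. The rule that chose the libraries uses their labels and no measured value.

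All cells were female mouse embryonic stem cells of the iXist-ChrX line, hybrid between the 129S and Cast strains, in which a doxycycline-driven promoter stands in place of the own promoter of Xist on the 129S allele. WT cells carry that promoter and no change in Spen. The SPOC clones carry the same promoter and a mutated SPOC domain of Spen, and each clone is a single line. Induced cells received doxycycline at 1 µg/mL for 24 h and uninduced cells received none. Drosophila SG4 chromatin was added to the SPOC clones and to WT replicates 1 and 2 as a spike-in, which the deposited scaling does not use. The submitters state that the SPOC lines and each WT replicate were handled on separate occasions in the 24 h series, so genotype and occasion cannot be told apart. Spen does not lie on the X, and only chromosome X was analysed here, so neither the mutation nor the cell type could be checked in the data.

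The titles and the file names of the 4 SPOC libraries contradict each other. Files named as induced belong to libraries titled uninduced, and the reverse, in both clones. The file names were followed here. By file name the genome 2 share of allelic signal was 51.54% uninduced and 65.32% induced in E7, and 51.19% and 64.9% in H1. WT replicates 1, 2 and 3 had 51.7%, 52.18% and 52.12% uninduced and 65.91%, 66.92% and 72.76% induced. With the titles followed, the SPOC clones would lose signal on genome 2 in 24 h, with a median log2 change of -0.71 over windows in the fit, and the values below that rest on the SPOC states would change with it, some of them in direction. The inputs lay between 50.78% and 51.49% whatever their state.

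H2AK119ub1 is histone H2A with a ubiquitin on a lysine of its tail, placed by the Polycomb complex PRC1. Xist RNA coats the X it is made from and brings Polycomb complexes to that chromosome, where gene-rich regions are known to gain the mark early. Spen is a large RNA-binding protein needed for silencing by Xist. It binds the A-repeat of Xist with its RNA recognition motifs (RRMs), and its C-terminal SPOC domain binds corepressors such as NCoR/SMRT, which carry the histone deacetylase HDAC3.

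The promoters of 5 genes show what some of the windows past the threshold hold. The first 3 lie in windows where the SPOC clones gained less than WT, and the other 2 in windows where they gained more once each library was centred. Sequences are RefSeq promoters on GRCm38.p6, the assembly of mm10, running from 250 bases before the gene start to 50 after it, with every CG dinucleotide in capitals.
Hcfc1, chrX:73966308-73966607, minus strand, 21 CG: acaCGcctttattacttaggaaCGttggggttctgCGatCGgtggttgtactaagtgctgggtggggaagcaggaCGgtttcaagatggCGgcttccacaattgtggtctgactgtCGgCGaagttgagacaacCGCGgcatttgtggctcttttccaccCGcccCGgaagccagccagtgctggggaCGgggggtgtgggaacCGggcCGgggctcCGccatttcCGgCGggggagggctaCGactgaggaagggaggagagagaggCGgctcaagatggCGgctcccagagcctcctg
Ddx3x, chrX:13280772-13281071, plus strand, 25 CG: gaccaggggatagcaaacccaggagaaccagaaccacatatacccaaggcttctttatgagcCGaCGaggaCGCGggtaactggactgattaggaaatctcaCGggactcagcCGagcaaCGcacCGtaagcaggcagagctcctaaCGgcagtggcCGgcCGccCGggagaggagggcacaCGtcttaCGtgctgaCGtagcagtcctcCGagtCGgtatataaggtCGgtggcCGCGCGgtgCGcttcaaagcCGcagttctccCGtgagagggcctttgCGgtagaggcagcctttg
Araf, chrX:20848293-20848592, plus strand, 14 CG: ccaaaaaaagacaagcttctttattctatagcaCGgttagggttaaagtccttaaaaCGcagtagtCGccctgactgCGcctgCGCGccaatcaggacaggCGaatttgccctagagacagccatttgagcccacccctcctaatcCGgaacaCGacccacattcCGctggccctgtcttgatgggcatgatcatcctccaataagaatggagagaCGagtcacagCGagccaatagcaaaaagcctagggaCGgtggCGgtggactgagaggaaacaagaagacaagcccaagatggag
Las1l, chrX:95956854-95957153, minus strand, 19 CG: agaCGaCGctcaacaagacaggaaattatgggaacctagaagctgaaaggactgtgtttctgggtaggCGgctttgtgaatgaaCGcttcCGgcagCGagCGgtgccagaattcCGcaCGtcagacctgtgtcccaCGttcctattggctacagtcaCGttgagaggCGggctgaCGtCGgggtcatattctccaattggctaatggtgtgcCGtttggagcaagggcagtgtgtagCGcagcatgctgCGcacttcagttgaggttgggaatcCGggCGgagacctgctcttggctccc
Zc4h2, chrX:95658460-95658759, minus strand, 8 CG: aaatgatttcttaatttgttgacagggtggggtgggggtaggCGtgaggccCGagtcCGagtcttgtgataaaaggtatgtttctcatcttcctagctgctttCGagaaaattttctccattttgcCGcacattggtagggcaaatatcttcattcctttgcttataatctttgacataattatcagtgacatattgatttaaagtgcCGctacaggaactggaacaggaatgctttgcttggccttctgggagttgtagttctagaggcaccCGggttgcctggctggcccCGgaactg
Hcfc1 encodes a transcription coregulator, Ddx3x an RNA helicase, Araf a kinase, Las1l a ribosome assembly protein and Zc4h2 a zinc finger protein of neural development. Promoters with 15 or more CG are called CpG-rich below, a limit chosen after the data were seen. By that limit Hcfc1, Ddx3x and Las1l have CpG-rich promoters. So do 30.6% of 960 promoters of 817 coding genes on the X in the RefSeq table, whose median is 8 CG. The window of Araf nonetheless holds 2 CpG-rich promoters and that of Zc4h2 holds 1. The latter is that of Zc3h12b (20 CG), a gene named below with the next window.

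Summed signal of all reads ran from 137765 to 263053 in the 10 libraries. Taking the smallest value above 0 on each allele as the worth of 1 fragment, a median window had 311 to 1145 fragments on each allele, with a median of 429.5. That gives a counting error of 4.83% per allele, which covers counting error only, and the read numbers themselves are unknown. Whether the WT replicates came from separate cultures is given only as their separate occasions, and p-values measure the spread between these libraries.

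The first question is how far the mark moved in the SPOC clones as a whole. The ratio of genome 2 to genome 1 rose along most of the measured part of the X. In limma at a Benjamini-Hochberg (BH) adjusted p under 0.05, 294 windows (83.3%) rose in the SPOC clones and 334 (94.6%) rose in WT, with none lower in either. The counts at an unadjusted p under 0.05 were 296 and 334 higher and 0 lower. Both SPOC pairs rose in 336 windows and all WT pairs in 341, and in 2 windows all WT pairs rose while both SPOC pairs fell.

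The median window changed by 0.81 in WT replicate 1, 0.82 in replicate 2 and 1.23 in replicate 3 on the log2 scale, folds of 1.75, 1.77 and 2.34. It changed by 0.71 in E7 and 0.7 in H1, folds of 1.64 and 1.62. The SPOC pairs were thus both below all WT pairs, close to replicates 1 and 2 and further from replicate 3. The means were 0.95 ± 0.24 in WT (SD, n = 3) and 0.7 ± 0.01 in SPOC (SD, n = 2), with p = 0.3 in an exact two-sided permutation test, whose smallest possible p is 0.1. In the fit the median over windows of the SPOC minus WT difference was -0.17, and without WT replicate 3 it was -0.02.

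Most of the change lay on genome 2, the allele that gains the mark. On genome 2 alone the median window changed by 0.94, 1.02 and 1.3 in WT replicates 1 to 3 and by 0.79 and 0.69 in E7 and H1 (exact permutation p = 0.2). On genome 1 the changes were 0.14, 0.18 and 0.04 in WT and 0.05 and 0.01 in SPOC (exact permutation p = 0.3). Changes of 1 allele depend on how the authors scaled the files, which is not stated, while the ratio within a library needs only that both alleles were scaled alike.

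**Figure D1:**
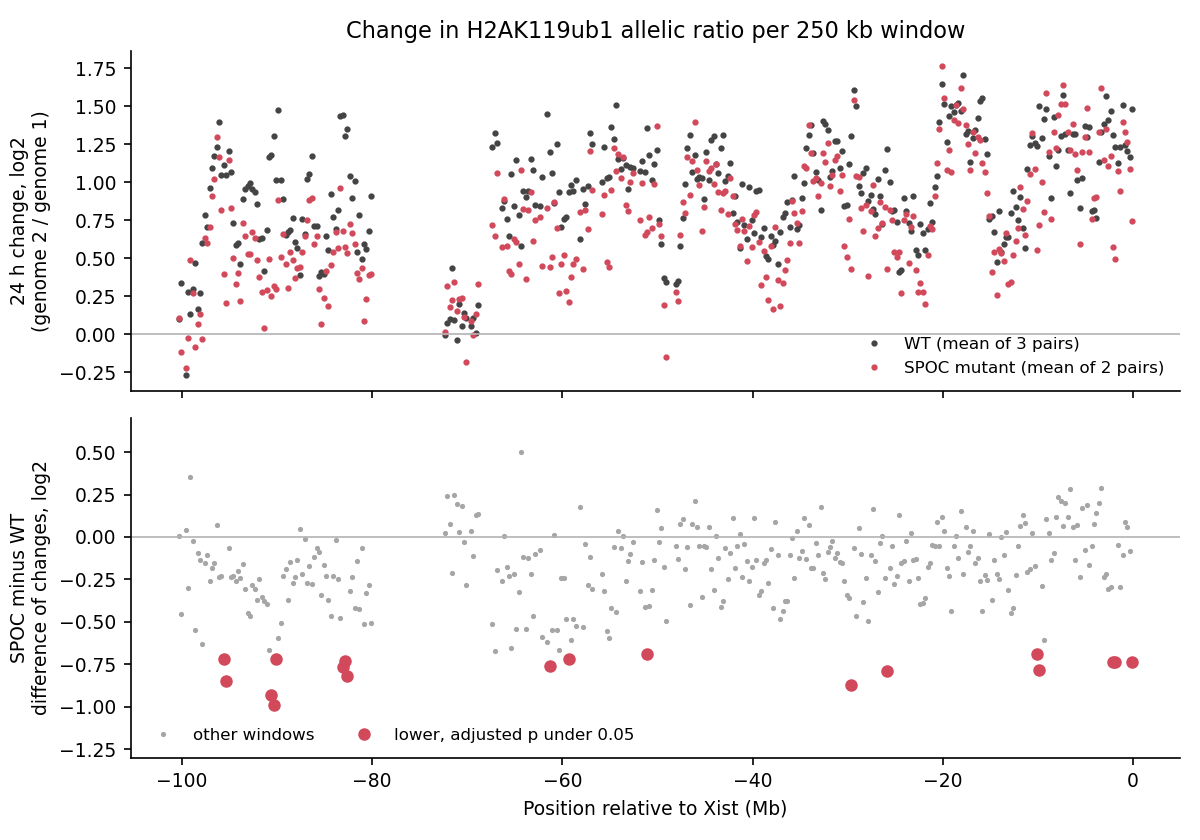
Log2 change of the genome 2 to genome 1 ratio in 24 h per 250 kb window for WT and SPOC clones (upper), and the difference of these changes (lower), against distance from Xist in Mb. The 18 windows lower in the SPOC clones are spread over the chromosome, and most other differences lie a little under 0.

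The second is where along the chromosome the clones differed from WT. On the uncentred ratio, named the level, 18 of 353 windows gained less in the SPOC clones than in WT (5.1%) and 0 gained more (0.0%), by limma at adjusted p under 0.05. At an unadjusted p under 0.05 the counts were 54 lower and 1 higher. The 18 windows lay in 11 separate places, and 12 of them stood in 5 stretches of 2 or 3 neighbouring windows. In all 18 both SPOC pairs lay below all 3 WT pairs, as they did in 110 windows of the 353 (31.2%); both lay above all WT pairs in 6 (1.7%). Neighbouring windows are not independent. Of the 18 windows, 17 stayed past the threshold without WT replicate 1, 16 without replicate 3, 2 without replicate 2, and 0 without E7 or H1, with all 18 lower in each of these fits.

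The SPOC clones gained less in these windows and in most of them still gained. WT gained 0.93 to 1.5 there and the SPOC clones 0.2 to 0.75 on the log2 scale, and the SPOC gain itself passed the threshold in 13 of the 18. Over all windows the median gain was 0.96 in WT and 0.71 in SPOC. The uninduced SPOC libraries differed from uninduced WT by -0.19 to 0.14 in the 18 windows, and none of the 353 windows passed in that comparison. Among the induced libraries alone, 62 windows were lower in SPOC (17.6%) and 0 higher, and the 62 held all 18. The lower count there was 103 without WT replicate 1, 37 without replicate 3 (with 5 higher) and 32 of 398 with no filter on low windows. It was 1 with inputs subtracted, in a fit that also lacks replicate 3. The median difference among the induced libraries was -0.25 without E7 and -0.21 without H1. In the inputs, the same ratio moved by a median of 0.04 and -0.11 in WT replicates 1 and 2 and -0.01 and -0.08 in E7 and H1 over the 18 windows, with single windows from -0.46 to 0.46; WT replicate 3 has no input in the series.

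The lowest of all was the window of Usp9x, a deubiquitinase gene (X:13000001-13250000). Its genome 2 signal went from 49.6 to 99.6, from 40.3 to 114.5 and from 46.4 to 144.4 in WT replicates 1 to 3, and from 48.7 to 51.6 in E7 and 54.2 to 66.3 in H1. Genome 1 signal stayed between 36.4 and 50.4 in the 10 libraries. The induced WT libraries thus stood well above the induced SPOC libraries, while the uninduced ones overlapped. The log2 ratio rose by 1.13, 1.34 and 1.44 in WT, a mean fold of 2.47, and by 0.36 in E7 and 0.27 in H1, a mean fold of 1.24. The difference was -0.99 ± 0.22 (SE, adjusted p = 0.0052), and the SPOC gain alone did not pass the threshold (adjusted p = 0.078).

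Its neighbours on both sides were also lower. The window of AA414768, from 12750001, rose by 0.91, 1.07 and 1.55 in WT and by 0.24 and 0.26 in E7 and H1, a difference of -0.93 ± 0.22. The window of Ddx3x, from 13250001, rose by 0.89, 1.04 and 1.11 in WT and 0.23 and 0.36 in SPOC (-0.72 ± 0.22). Ddx3x is a gene known to escape X inactivation. The window on the far side, with Atp6ap2 and the Mediator gene Med14 (from 12500001), was the first outside the threshold at -0.67 (adjusted p = 0.056), while the last inside was that of Gpc3 at -0.69 (adjusted p = 0.044).

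Several of the 18 windows hold many coding genes, although the median of the 18 was 2. The window of Hcfc1 (X:73750001-74000000) holds 11 coding genes and 8 CpG-rich promoters, among its genes the neural adhesion gene L1cam and the acetyltransferase gene Naa10. Genome 2 signal there went from 80.9 to 171 in WT replicate 1 and from 87.3 to 266.7 in replicate 3, against 101.3 to 128.2 in E7 and 104.6 to 144 in H1. The change in ratio was 1.12, 1.22 and 1.57 in WT and 0.49 and 0.38 in SPOC, a difference of -0.87 ± 0.22 (adjusted p = 0.014).

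Near the start of the chromosome, the window of Suv39h1, a histone H3 lysine methyltransferase gene, with the sterol enzyme gene Ebp and the RNA-binding protein gene Rbm3 (from 8000001) rose by 0.82, 1.08 and 1.25 in WT and 0.12 and 0.28 in SPOC. That difference was -0.85 ± 0.22. The window before it, with 12 coding genes including the deacetylase gene Hdac6 and the blood cell factor gene Gata1, rose by 0.81, 1.13 and 1.39 in WT and 0.33 and 0.46 in SPOC (-0.72 ± 0.22). In both windows the highest SPOC pair was below the lowest WT pair.

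A stretch of 3 windows from 20250001 held Rp2 and Jade3, then Uba1, the ubiquitin-activating enzyme gene, with the splicing factor gene Rbm10, then Araf with Timp1 and Elk1. Their differences were -0.77 ± 0.22, -0.73 ± 0.22 and -0.82 ± 0.22. In the Araf window the WT pairs rose by 1.09, 1.32 and 1.64, and E7 and H1 by 0.61 and 0.45. In the window of Rp2 and Jade3 the SPOC clones still rose by 0.71 and 0.64, against 1.31 to 1.68 in WT, so its gain remained larger than that of the Usp9x window.

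Closer to Xist, 2 adjoining windows held the Mediator gene Med12 and the RNA-binding protein gene Nono (from 101250001, -0.74 ± 0.22), and the TFIID gene Taf1 with the glycosyltransferase gene Ogt (from 101500001, -0.74 ± 0.22). The window of Tbl1x, whose product is a subunit of the NCoR corepressor complex, rose by 1.19, 1.03 and 1.44 in WT and 0.34 and 0.52 in SPOC (-0.79 ± 0.22). That of Pcyt1b, a phosphatidylcholine synthesis gene (from 93500001), rose by 1.17, 1.39 and 1.94 in WT and 0.76 and 0.67 in SPOC (-0.78 ± 0.22). The window of Xiap, an inhibitor of apoptosis, and the cohesin gene Stag2 differed by -0.76 ± 0.22. In these windows too no SPOC pair reached the lowest WT pair.

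The window of Xist itself (from 103250001, with Cdx4, Chic1 and Tsx) rose by 1.29, 1.6 and 1.56 in WT and 0.61 and 0.89 in SPOC, a difference of -0.74 ± 0.22 (adjusted p = 0.033). Its last base was 103500000 in WT replicates 1 and 2 and 103483233 in WT replicate 3 and both clones, so unequal stretches were compared. WT replicate 3, with the same end as the SPOC libraries, had 1.56.

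A single window of the 18, from 44000001, held no coding gene, and it was named for that after its values were seen. It rose by 0.85, 0.75 and 1.21 in WT and by 0.01 in E7 and 0.41 in H1, so the clones differed from each other there (-0.72 ± 0.23).

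**Figure D2:**
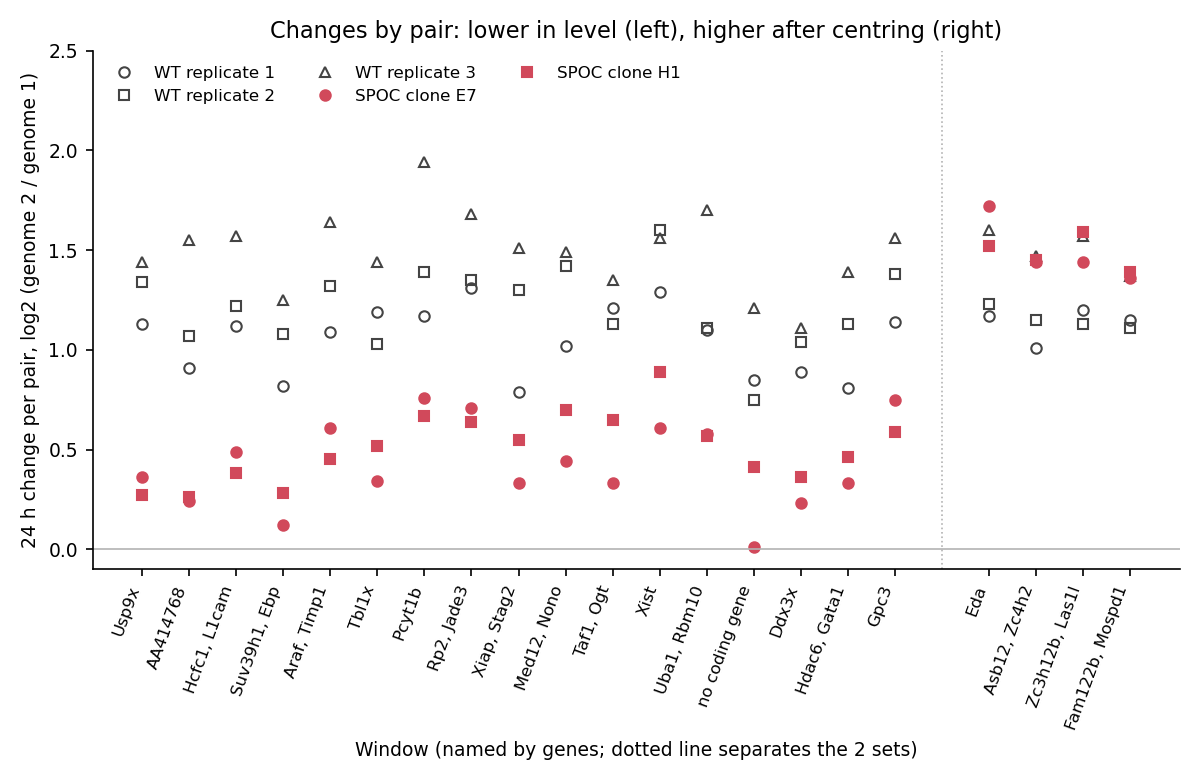
Log2 change of the genome 2 to genome 1 ratio in 24 h for each pair of libraries, in 17 of the 18 windows lower in level (left) and 4 of the 5 higher after centring (right). On the left both SPOC clones lie under all WT replicates in every window shown, and on the right they lie among or just above WT replicate 3.

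Because the median window rose most in WT replicate 3, the location of the gain was also tested with the value of the median window subtracted from every library, named the pattern. Subtraction moved the median SPOC minus WT difference from -0.17 to 0.09. After it 12 windows were lower (3.4%) and 5 higher (1.42%) in the SPOC clones. At an unadjusted p under 0.05, 27 were lower and 51 higher. All 12 lower windows were among the 18 lower in level. With pairs as a block in the fit, 7 were lower and 2 higher. Without WT replicate 1, 2 or 3 the counts were 5, 0 and 5 lower, without E7 or H1 they were 0, and in each of these 5 fits 0 were higher. Both SPOC pairs lay below all WT pairs in 49 windows (13.9%) and above them in 113 (32.0%).

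The lower windows in pattern were led by those of Usp9x (-0.73 ± 0.14, adjusted p = 0.011), AA414768 (-0.67 ± 0.13), Hcfc1 (-0.61 ± 0.12), Suv39h1 (-0.59 ± 0.14) and Araf (-0.56 ± 0.12). Those of Tbl1x (-0.53 ± 0.13), Pcyt1b (-0.53 ± 0.13), Rp2 and Jade3 (-0.51 ± 0.11), Taf1 and Ogt (-0.48 ± 0.13) and Uba1 (-0.47 ± 0.12) followed. With the block the windows of Pcyt1b, Uba1, and Taf1 and Ogt did not pass (adjusted p = 0.057, 0.059 and 0.085). Those of Hdac6 and Gpc3, also lower in pattern, did not pass with the block either. Relative to the median window of the same library, the Usp9x window stood at 0.3, 0.49 and 0.18 in WT and at -0.36 and -0.44 in the SPOC clones. It therefore went from a window of above-median gain in every WT pair to one of below-median gain in both clones.

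The 5 higher windows included those of Eda, an ectoderm development gene, of Asb12 and Zc4h2, of Zc3h12b and Las1l, and of Fam122b and Mospd1. The Eda window (X:100000001-100250000) rose by 1.17, 1.23 and 1.6 in WT and by 1.72 and 1.52 in E7 and H1. Relative to the median window this was 0.34, 0.38 and 0.34 in WT and 1.0 and 0.81 in SPOC, a difference of 0.55 ± 0.12 (adjusted p = 0.019). Centred values did not overlap in any of the 5 windows, while uncentred ones overlapped in all 5, with level differences of 0.16 to 0.29.

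The window of Asb12 and Zc4h2 (from 95500001) had a centred change of 0.18 to 0.29 in WT and 0.71 and 0.74 in SPOC, a difference of 0.5 ± 0.11. Its neighbour with Zc3h12b and Las1l had 0.28 to 0.38 in WT and 0.72 and 0.87 in SPOC (0.47 ± 0.12), and that of Fam122b and Mospd1 0.12 to 0.32 and 0.63 and 0.67 (0.42 ± 0.12). The last 2 did not pass with the block (adjusted p = 0.057 and 0.077). The first window outside the threshold held Rbmx and Arhgef6 (from 57250001, 0.47, adjusted p = 0.055). On the level scale the 5 largest values upward are given without a call. They were 0.5 in a window with no coding gene from 39000001 and 0.35 in the window of Btbd35f20 and Btbd35f17. The Eda window had 0.29, that with no coding gene from 96750001 had 0.28, and that of Btbd35f22 and Gm5923 had 0.25.

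**Figure D3:**
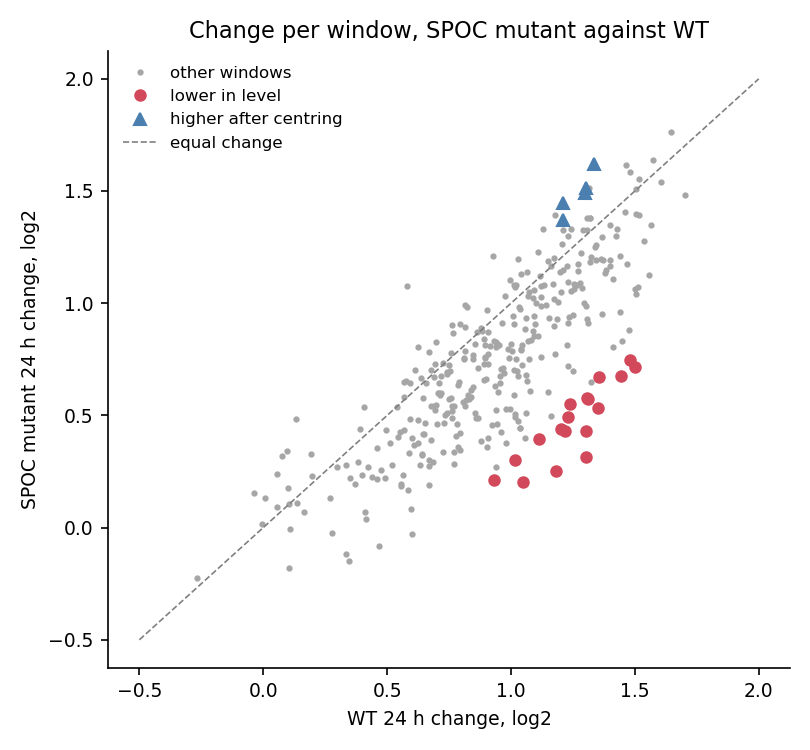
Log2 change in 24 h in the SPOC clones (mean of 2 pairs) against WT (mean of 3 pairs) for the 353 windows, with the line of equal change. The windows lower in level had gains of 0.93 to 1.5 in WT and 0.2 to 0.75 in SPOC, and those higher after centring had 1.21 to 1.33 and 1.37 to 1.62.

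Gene content, which the test did not use, set the lower windows beside all windows as follows. A coding gene lay in 17 of the 18 lower windows, against 64.6% of all kept windows. A CpG-rich promoter lay in 14 of the 18 (77.8%), against 26.9% of all. Genes covered a median of 56.4% of the lower windows and 8.1% of all windows. Of the 5 windows higher after centring, all 5 held a coding gene and 3 a CpG-rich promoter. Genes covered a median of 78.3% of those 5, so gene content was not particular to the lower windows. The distance of the lower windows from Xist ran from 0.1 to 95.6 Mb, nearly the whole measured length. The Usp9x promoter has no entry in the RefSeq table, so its window counts as having none.

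Windows were then grouped by their number of CpG-rich promoters, in classes chosen with the values in view, and the means carry no test. WT pairs gained 0.86 ± 0.23 in the 258 windows with none, 1.11 ± 0.26 in the 57 with 1, 1.15 ± 0.21 in the 31 with 2 or 3 and 1.19 ± 0.23 in the 7 with 4 or more (SD, n = 3). The SPOC clones gained 0.7 ± 0.02, 0.86 ± 0.0, 0.83 ± 0.01 and 0.7 ± 0.08 (SD, n = 2). The means in WT thus increased with the class, while those in the SPOC clones were highest in the middle classes. The difference of the means was -0.16, -0.25, -0.32 and -0.49 in the same order. By gene number it was -0.17 in the 125 windows with no gene, -0.19 in the 186 with 1 to 3, -0.28 in the 29 with 4 to 7 and -0.45 in the 13 with 8 or more.

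Shape measures were computed per pair and compared by exact two-sided permutation tests, none of which can go below p = 0.1. The adjustment covers 7 of them, and a further measure was added with the CpG-rich promoters. The Spearman rho between the change and gene coverage, in percent of the window, was 0.59, 0.61 and 0.54 in WT and 0.36 and 0.43 in E7 and H1 (exact permutation p = 0.1). The mean change in windows with 4 or more genes minus that in windows with none was 0.23, 0.25 and 0.19 in WT and 0.0 and 0.11 in SPOC (exact permutation p = 0.1). For these 2 measures the clones lay wholly below WT. The added measure was the rho with the number of CpG-rich promoters. It was 0.32, 0.37 and 0.3 in WT and 0.12 and 0.15 in E7 and H1 (exact permutation p = 0.1, not adjusted).

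Gain also fell off with distance from Xist. The rho was -0.35, -0.33 and -0.39 in WT and -0.48 and -0.51 in SPOC (exact permutation p = 0.1). The interquartile range of the change over windows was 0.5, 0.48 and 0.53 in WT and 0.56 and 0.58 in SPOC (exact permutation p = 0.1). The rho with gene number was 0.24, 0.24 and 0.16 in WT and 0.03 and 0.15 in SPOC (exact permutation p = 0.2). The slope of the change on the mean WT change of the other pairs was 0.84, 0.81 and 1.09 in WT and 0.81 and 0.88 in SPOC, where the groups overlapped (exact permutation p = 0.8). Adjusted p over the 7 measures, the median change included, were 0.175 to 0.8. By position on the chromosome, the mean SPOC minus WT difference was -0.28 in the 67 windows of the first 20 Mb, which are the farthest from Xist, -0.1 in the 80 windows between 80 and 100 Mb and -0.24 in the 14 windows from 100 Mb to Xist.

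Across the 353 windows the changes of E7 and H1 correlated at a Pearson r of 0.85, and those of WT pairs with each other at 0.83 to 0.84. The mean SPOC change correlated with the mean WT change at 0.79. These are descriptions across windows, which share depth, base composition and neighbours, and carry no p.

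**Figure D4:**
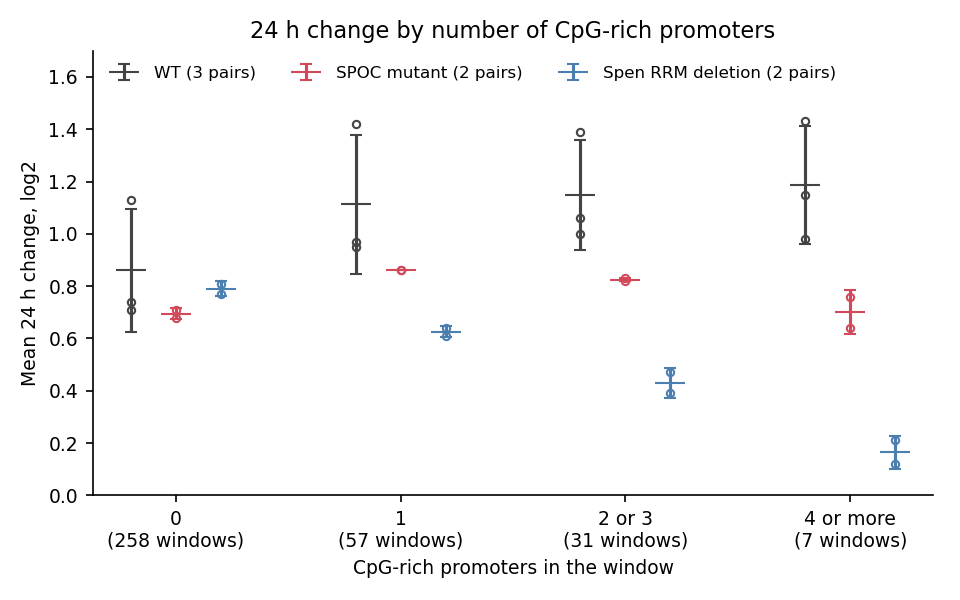
Mean log2 change in 24 h over windows grouped by their number of CpG-rich promoters, with a circle per pair of libraries, a bar at the mean and whiskers of 1 SD (WT n = 3, SPOC mutant n = 2, Spen RRM deletion n = 2). WT means run from 0.86 to 1.19 with the class, SPOC means stay between 0.7 and 0.86, and Spen RRM deletion means fall from 0.79 to 0.17.

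Gene lists give the same values by role. The lists were chosen with earlier results of these data known, and some windows stand in several. Over all 353 windows 5.1% were lower in level and 3.4% in pattern, and 0.0% and 1.42% higher, and the counts of each list are to be read against these shares. Of 17 windows with chromatin regulator genes, 7 were lower in level and 5 in pattern, with a median difference in level of -0.66 against -0.17 over all windows. All 17 differences were below 0, as were 278 of the 353. Lower were the windows of Hcfc1, Suv39h1, Jade3, Stag2, Med12, Taf1 with Ogt, and Hdac6. At the other end, the window of Nap1l2, a nucleosome assembly gene, had -0.08 and that of the deacetylase gene Hdac8 -0.11.

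Housekeeping genes lay in 24 windows, of which 8 were lower in level and 6 in pattern (median level -0.41), against 5.1% and 3.4% of all windows. Their median gain was 1.24 in WT and 0.62 in SPOC. The highest differences were 0.09 ± 0.22 in the window of Phka1, a phosphorylase kinase gene, and 0.06 ± 0.23 in that of Msn, which encodes moesin; neither passed. RNA-binding protein genes lay in 13 windows, 5 lower in level and 3 in pattern (median -0.59), against the same 5.1% and 3.4%. Besides those of Rbm3, Nono, Rbm10 and Ddx3x, the lower one was that of Hdac6, which holds the splicing gene Pqbp1. The window of the RNA-binding protein gene Rbmx had 0.21 ± 0.22 and did not pass.

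Escape genes lay in 4 windows with a median of -0.6. That of Ddx3x was lower in level and none passed in pattern. The window of the translation factor gene Eif2s3x rose by 1.41 in WT and 0.81 in SPOC (-0.61 ± 0.22, adjusted p = 0.098), and that of the histone demethylase gene Kdm6a by 0.41 and 0.07 (-0.34 ± 0.22, adjusted p = 0.52).

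Developmental transcription factor genes lay in 9 windows, 4 lower in level and 2 in pattern (median -0.35). Among those lower in level were the windows of Gata1, beside Hdac6, of Elk1, beside Araf, and of Cdx4, beside Xist. Long neural and muscle genes lay in 12 windows, 2 lower in level against 5.1% of all (Nlgn3 in the window of Med12, and Gpc3, a glypican gene, at -0.69 ± 0.22). In pattern the window of Gpc3 was lower, just inside the threshold (limma adjusted p = 0.0499), and it did not pass with pairs as a block. The window of the dystrophin gene Dmd had -0.23 ± 0.23 and did not pass.

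Germline multicopy genes lay in 40 windows, none of which passed on either scale, where 5.1% of all windows were lower in level, 3.4% lower in pattern and 1.42% higher in pattern. Their median difference in level was -0.05, with gains of 0.6 in WT and 0.45 in SPOC. The extremes were -0.66 ± 0.23 in a window of Rhox genes (from 38000001) and 0.35 ± 0.22 in that of Btbd35f20 and Btbd35f17. In the list of the X-inactivation centre, which has 2 windows, the one with Xist was lower and the one with Nap1l2 did not pass.

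The signal of all reads, not split by allele, reaches past the end of the allelic files. It comes from the same libraries and covers both alleles, so a change on 1 allele appears diluted. The median window was subtracted here too, and 669 windows were tested. The difference of changes was lower in the SPOC clones in 30 windows (4.48%) and higher in 7 (1.05%). Of the 267 windows past the allelic files, 12 were lower and 7 higher, and of the other 402, 18 were lower and 0 higher. With pairs as a block 47 were lower and 14 higher. Without WT replicate 1, 2 or 3 the lower count was 22, 11 and 33 and the higher count 0, 0 and 9; without E7 they were 9 and 1, and without H1 31 and 0.

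The windows below were named after their values were seen. The lowest was that of Rbbp7, a histone-binding subunit gene of Polycomb and deacetylase complexes, with Txlng and Syap1 (X:162750001-163000000), far beyond Xist. Its promoter, the richest in CG of those printed here, is on GRCm38.p6 with every CG in capitals.
Rbbp7, chrX:162760122-162760421, plus strand, 38 CG: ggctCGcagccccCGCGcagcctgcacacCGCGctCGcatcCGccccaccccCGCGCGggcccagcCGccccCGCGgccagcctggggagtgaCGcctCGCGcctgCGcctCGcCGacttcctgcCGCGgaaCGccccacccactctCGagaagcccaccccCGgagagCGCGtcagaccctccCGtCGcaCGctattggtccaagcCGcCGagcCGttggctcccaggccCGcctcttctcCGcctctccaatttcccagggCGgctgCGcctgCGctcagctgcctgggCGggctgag
The centred change of the Rbbp7 window was 0.39, 0.59 and 0.34 in WT and -0.34 and -0.26 in E7 and H1, a difference of -0.75 ± 0.09 (adjusted p = 0.0002). The window thus gained more than the median window in WT and less than it in both clones.

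Also lower past Xist were the windows of Fgd1 and Tsr2 (from 151000001, -0.6 ± 0.1), of Huwe1, a ubiquitin ligase gene (from 151750001, -0.52 ± 0.08), of Diaph2, a formin gene (from 130000001, -0.51 ± 0.09), and of the chromatin remodeller gene Atrx (from 105750001, -0.36 ± 0.08). In the Huwe1 window the centred change was 0.42, 0.5 and 0.59 in WT and -0.11 and 0.08 in SPOC, so the groups were well apart. On the allelic side the lowest were those of Usp9x (-0.75 ± 0.1), Pcyt1b (-0.6 ± 0.07) and Gpc3 (-0.52 ± 0.07). Of the 18 windows lower in level 10 were also lower in all reads, and of the 17 windows lower in all reads that had both alleles measured 10 were lower in level. The highest was the window of Cysltr1, a leukotriene receptor gene (from 106500001), at 0.24, 0.18 and 0.17 in WT and 0.47 and 0.62 in SPOC (0.35 ± 0.08). Of the 30 lower windows 27 held a coding gene and 19 a CpG-rich promoter, and of the 7 higher windows 3 and 1; of all 669 windows 61.9% and 25.7% did.

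**Figure D5:**
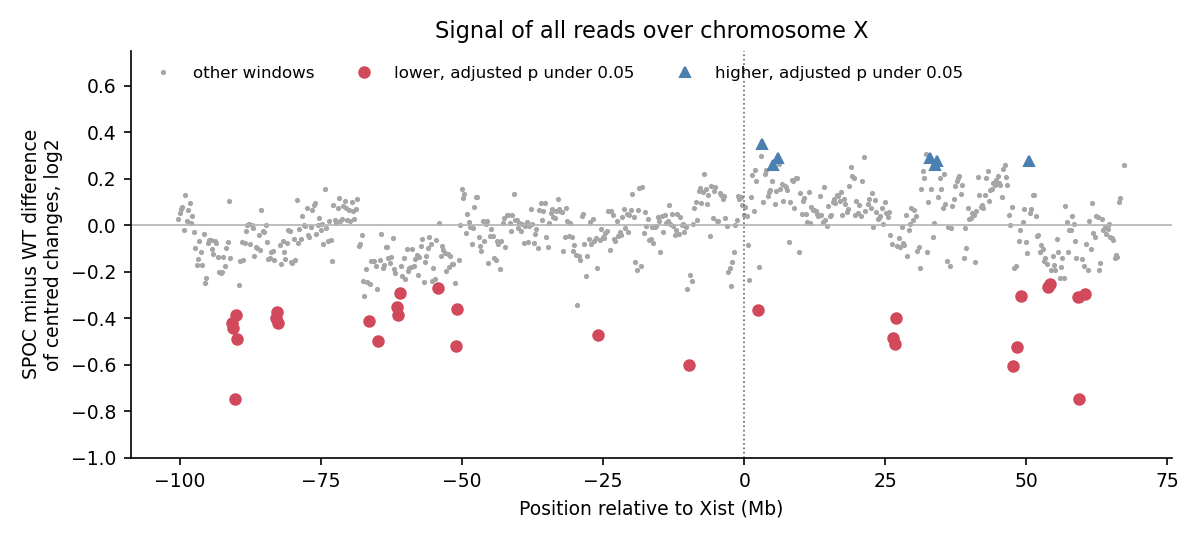
SPOC minus WT difference of the centred log2 change in signal of all reads per 250 kb window, against distance from Xist in Mb (dotted line at Xist). Of 669 windows 30 were lower and 7 higher, and the 7 higher windows lie past Xist.

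Set against the Spen RRM deletion, clones C3 and D4 of the same 24 h series, which lack the RNA recognition motifs in place of a changed SPOC domain, the SPOC clones differed mainly in where the gain lay. The median gain was 0.65 and 0.68 in C3 and D4, next to 0.71 and 0.7 in E7 and H1. After centring, the SPOC clones were higher than the Spen clones in 50 windows (14.2%) and lower in 61 (17.3%). These counts depended on the processing. They were 111 and 21 with centring on windows without a gene, and 17 and 13 after division by the SD. With inputs subtracted, in a fit that lacks WT replicate 3, 0 windows passed in either direction, centred or not. On the level scale 23 were higher (6.52%) and 8 lower (2.27%). These level counts were 10 and 4 without WT replicate 2, 56 and 49 without WT replicate 3, 2 and 0 without E7, and 2 and 1 without H1; the WT libraries enter through the shared spread. The mean gain in windows with 4 or more genes minus that in windows with none was 0.0 and 0.11 in the SPOC clones and -0.42 and -0.6 in C3 and D4. The windows lower in the SPOC clones were mostly lower in the Spen clones too. After centring, the Spen clones were below WT in 17 of the 18 windows lower in level and above it in 1. They were below WT in all 12 lower in pattern, against 69 of all 353 windows. Both mutants are compared with the same WT libraries, and a high WT change in a window lowers both differences. These counts are therefore no independent evidence that the mutants are alike. The median gain in the 18 was 0.47 in SPOC and 0.19 in Spen clones. SPOC minus Spen passed in level in 1 of the 18. These 2 mutants were also handled on separate occasions.

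Among the windows higher in the SPOC clones, that of Klhl15 and Apoo, chosen after the values were seen, rose by 1.63 and 1.54 in E7 and H1 and by 0.45 and 0.16 in C3 and D4 (1.21 ± 0.13 after centring). There the SPOC pairs lay within the range of the WT pairs, 1.3 to 1.82, and both Spen pairs lay below it. In the Araf window the gain was 0.61 and 0.45 in SPOC and -0.09 and 0.0 in Spen clones (0.51 ± 0.13, adjusted p = 0.0071), and in that of Hdac6 0.33 and 0.46 against -0.08 and -0.12 (0.43 ± 0.13, adjusted p = 0.018). The Usp9x window did not differ past the threshold, at 0.36 and 0.27 against -0.08 and 0.21 (adjusted p = 0.38). Downward, the largest difference was in the window from 44000001 with no coding gene, at 0.01 and 0.41 in SPOC and 1.15 and 1.3 in Spen clones (-1.08 ± 0.2).

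By class of CpG-rich promoters, the Spen clones gained 0.79 ± 0.03, 0.62 ± 0.02, 0.43 ± 0.06 and 0.17 ± 0.06 (SD, n = 2) in windows with none, 1, 2 or 3, and 4 or more. The SPOC values of 0.7, 0.86, 0.83 and 0.7 stood between these and WT in all but the first class, where they were the lowest. Both mutants are set against the same WT libraries here.

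The 3 h series gives other libraries of the SPOC mutation, of clones C11 and H1, handled on a single day with 1 WT library per state, so no test between genotypes was made. The median change over all windows was 1.1 in WT, 0.77 in C11 and 0.7 in H1. In the 18 windows lower at 24 h it was 0.94, 0.55 and 0.44, and both clones lay below WT in 17 of the 18, against 83.3% of all windows. After centring both lay below WT in 13 of the 18 (72.2%), against 37.7% of all windows. In the 5 windows higher at 24 h after centring, both clones were below WT at 3 h, centred or not, with medians of 1.98 in WT, 1.31 in C11 and 1.5 in H1 before centring.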

How the data were processed

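The authors deposited, for each library, a file of all reads and a file for each of genome 1 and genome 2. Their values are a normalized signal per 250 kb window of chromosome X, going by the deposited names, and carry no header. The scaling factor, the counts behind the signal and the strain of genome 1 and genome 2 are not given in the sources used here. Per the submitters' processing notes, Bowtie2 2.2.6, Picard and bedtools were used with mm10, with their roles not stated. Reads without molecular identifiers are not independent molecules, so counting errors cover counting only.

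From these signals, log2((genome 2 + offset)/(genome 1 + offset)) was computed per window, with an offset of 1% of the file's median window. This takes the scaling to be shared by both alleles of a library, which no source states. Windows were kept where the mean of each allele over all 36 libraries reached 10% of the median window, which left 353 of 414. The same rule left 669 of 685 windows for all reads. Changes and their differences came from a single limma 3.58.1 fit (R 4.3.3) of the 14 H2AK119ub1 libraries of the 24 h series in 6 groups, two-sided, with BH adjustment at 0.05 over all kept windows. The groups share an estimate of spread because the SPOC groups hold 2 libraries each. The error after ± at a window is the SE from that fit unless SD is named. The fit was tested on simulated data with noise of the same size in every window, drawn independently for each window and library. Shifts shared by all windows of a library, as in WT replicate 3, were not simulated, so calls under such shifts were not tested. For SPOC minus WT in level, the fit called 3 of 20 windows with a true difference of 0.3 in size. It called 4 of 20 at 0.6, 17 of 20 at 1.0 and 0 of 293 with none, so most differences under 1.0 were missed there. Exact permutation tests used scipy 1.17.1 in Python 3.11.15 with numpy 2.4.6 and pandas 2.3.3, and plots matplotlib 3.10.9.

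Genes are RefSeq coding genes of GRCm38.p6, placed by their midpoint, and promoters by their own position. Windows were named by a rule: among windows past the threshold whose SPOC and WT pairs did not overlap, the 10 lowest and 10 highest for level and for pattern, or the 5 most extreme as values where fewer than 5 passed, the window of Xist, and the most extreme windows of each gene list. Windows named outside the rule are said to be, and some that it names are not reported here. The members, gene lists and tests were chosen with earlier results of these data known. CpG-rich promoters, the classes of windows and the fit without the Xist window were added after the data were seen.

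Per the series' design text each WT replicate had its own occasion, and each clone is its own line, so the design pairs the uninduced with the induced library. The correlation over windows of the deviations within a pair was -0.009, -0.103 and 0.027 in WT and 0.116 in the SPOC clones. The planned fit has no block for pairs, and the blocked value is printed where it changes a count by more than 1.5 times or ends a call. Alternatives tried were the titled states, offsets, filters, libraries in the fit, the block, leaving out each pair, subtraction of inputs, 500 kb windows, moderation, and other centring and scaling.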

Additional observations from a re-analysis of the deposited data

Results flagged for a closer look

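The difference between the genotypes was itself tested in each of these results, as a difference of changes between SPOC clones and WT. On the level scale 18 windows were lower in the SPOC clones. After centring 12 windows were lower and 5 higher. In the signal of all reads past the end of the allelic files, a region that the allelic ratio does not cover, 12 windows were lower and 7 higher. In all of these the genotypes were handled on separate occasions.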

How the results depend on the processing

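The induction states decide the result most. With the titles followed, 333 windows were lower and 1 higher in level (median -1.66), 114 lower and 115 higher in pattern, 0 rose in the SPOC clones, SPOC minus Spen was higher in 106 and lower in 116, and all reads were lower in 181 and higher in 323. With the titles, the difference in the rho with distance turned to 0.85. Level differences turned negative in the windows from 4250001 (-0.62), 39000001 (-1.66), 53250001 (-2.58), 95500001 (-2.65), 95750001 (-2.82), 96750001 (-2.14) and of Eda (-2.95). Pattern differences turned in the windows of Suv39h1 (0.45), AA414768 (0.27), Usp9x (0.08), Tbl1x (0.05), Fam122b (-0.88), Asb12 (-0.96), Las1l (-1.12), that from 96750001 (-0.44) and Eda (-1.26).

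With file names followed, no filter left 3 of 398 windows lower in level, and 500 kb windows left 5 of 176. The main fit tested 353 windows and the 25% filter left 328. Subtraction of the own input without WT replicate 3 left 0 lower in level, 0 lower and 0 higher in pattern. Division by the SD left 0 lower and 0 higher in pattern, and centring on windows without a gene 0 higher. Higher in pattern were 3 with an offset of 0.1%, 11 with 10%, 3 with no filter, 10 with a 25% filter, 11 with only WT and SPOC libraries, 8 with trended robust moderation and 3 without the Xist window. With pairs as a replicate block 7 were lower and 2 higher in pattern, and 47 lower and 14 higher in all reads; the block moved no other count by over 1.5 times. Leaving out a pair gave 0 to 19 lower in level with a median of -0.26 to -0.02, 0 to 5 lower and 0 higher in pattern, 9 to 33 lower and 0 to 9 higher in all reads, and SPOC minus Spen was higher in 33 to 48 and lower in 32 to 62. The difference in slope, -0.07 with all pairs, ran from -0.1 to 0.03, the value above 0 being that without WT replicate 3. The cause of these moves was not tested. Inputs held a median of 164 fragments per window and allele, a counting error of 7.81%, which limits values with input subtracted.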

Other observations

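The windows named here were chosen after their values were seen. In the 2 windows where all WT pairs rose and both SPOC pairs fell, the genes were of the Btbd35f family near the start of the chromosome and around 33 Mb, multicopy genes of the germline. The window of Btbd35f11 (from 3250001) changed by 0.47, 0.35 and 0.18 in WT and -0.15 and -0.08 in E7 and H1 (-0.45 ± 0.22, adjusted p = 0.27), and that of Btbd35f12 (from 33250001) by 0.05, 0.24 and 0.02 and by -0.21 and -0.15 (-0.28 ± 0.22, adjusted p = 0.66). Neither passed the threshold.

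Next come the 3 windows in which E7 and H1 differed most from each other. The window of Gm14596 and Gm14594 (from 54250001) changed by -0.64 in E7 and 0.34 in H1, and a window with no coding gene from 45250001 by 1.21 and 0.4. A window within Tenm1, a long gene of a neuronal surface protein (from 43000001), changed by 0.63 in E7 and -0.08 in H1, with 0.36, 0.88 and 1.57 in WT. The WT pairs were further apart there than the clones.

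The largest mean SPOC gain was in the window of Tsga8, which rose by 1.65 and 1.87 in E7 and H1 and by 1.43, 1.37 and 2.13 in WT. The next was that of Msn (from 96000001), with 1.51 and 1.77 and with 1.47, 1.49 and 1.77. In both the SPOC pairs lay within the range of WT.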
